A study of Mus musculus with 27 samples.

Results

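The miR-17-92 cluster is a run of 6 microRNA hairpins on the plus strand of mouse chromosome 14, at chr14:115442906-115443718 (mm9), a span of 813 bp. Its members were taken by position: the 12 mature loci inside that span, 2 arms for each of miR-17 (mmu-miR-17-5p and mmu-miR-17-3p), miR-18a (mmu-miR-18a-5p and mmu-miR-18a-3p), miR-19a (mmu-miR-19a-5p and mmu-miR-19a-3p), miR-20a (mmu-miR-20a-5p and mmu-miR-20a-3p), miR-19b-1 (mmu-miR-19b-1-5p and mmu-miR-19b-3p) and miR-92a-1 (mmu-miR-92a-1-5p and mmu-miR-92a-3p), of 2035 mature loci with 1900 names in the deposited tables. The names miR-19b-3p and miR-92a-3p have a second locus on chromosome X, and only their chromosome 14 rows were used. Between the 2 arms of a hairpin lay 13 to 18 bp, and between neighbouring hairpins 56 to 124 bp. In the RefSeq annotation of GRCm38.p6 the long non-coding RNA gene Mir17hg overlapped all 80 bases of the miR-92a-1 hairpin, 2 bases of that of miR-19b-1 and 0 of the remaining 4.

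The study compared embryonic stem (ES) cells of the mouse line CJ7, grown in serum with leukemia inhibitory factor, of 4 kinds: wild-type cells and the mutants Eed-/-, Ezh2-/- and Jarid2-/-. PRC2, a Polycomb complex, methylates histone H3 in silent chromatin: Ezh2 is its enzyme, Eed binds the mark and is needed for activity, and Jarid2 is a cofactor. The series title names the maternal Gtl2-Rian-Mirg locus as its subject, and the members described here lie outside it. Of 27 samples in the labels 7 are small RNA libraries, 1 for Jarid2-/- and 2 for each other genotype, while the tables hold 1 column of counts per genotype, and whether a column sums the libraries is not stated. No allele, number of clones or passage is given in the sources used here for the mutant lines.

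The miR-17-92 hairpins are cut from 1 long primary transcript by Drosha, and Dicer then frees a duplex of which usually 1 arm is loaded into an Argonaute protein and the other is degraded. The loaded strand finds its messenger RNA targets mainly through its seed, bases 2 to 8 from the 5′ end. The cluster is a target of Myc, is abundant in ES cells and other dividing cells, and lowers messenger RNAs of brakes on growth and survival, among them Cdkn1a and Bcl2l11 (Bim). There are related clusters in the mouse: miR-106a-363 on chromosome X and miR-106b-25 on chromosome 5.

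The mature sequences show which members can stand in for one another and which are hard to tell apart by sequencing. In the lines here, from the deposited tables and the same in the RefSeq table of mature microRNAs (which holds 11 of the 12 members), capitals mark the seed. The 6 arms that carried most of the counts come first, in order along the cluster.
miR-17-5p: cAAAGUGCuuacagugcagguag
miR-18a-5p: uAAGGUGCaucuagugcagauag
miR-19a-3p: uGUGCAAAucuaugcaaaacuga
miR-20a-5p: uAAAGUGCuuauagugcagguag
miR-19b-3p: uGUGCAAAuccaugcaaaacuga
miR-92a-3p: uAUUGCACuugucccggccug
These 6 arms hold 4 distinct seeds: AAAGUGC in miR-17-5p and miR-20a-5p, AAGGUGC in miR-18a-5p, GUGCAAA in miR-19a-3p and miR-19b-3p, and AUUGCAC in miR-92a-3p. All 12 members hold 10. Positions are counted from 1 at the 5′ end, with the base of the first-named microRNA first. MiR-19a-3p differs from miR-19b-3p by U11C alone, so their seeds are the same. MiR-20a-5p differs from miR-17-5p by U1C and U12C, both outside the seed.

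The 3 sequences that follow are the less abundant arm of miR-17, whose level differed most between genotypes, and the chromosome X relatives closest to the 2 arms of miR-17.
miR-17-3p: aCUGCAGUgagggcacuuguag
miR-20b-3p: aCUGCAGUgugagcacuucuag
miR-106a-5p: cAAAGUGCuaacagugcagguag
MiR-17-3p differs from miR-20b-3p by A10U, G12A and G19C, and miR-17-5p from miR-106a-5p by U10A. The whole miR-17 hairpin (RefSeq, gene Mir17, 84 nt, plus strand, GRCm38.p6) is shown because its arms moved apart, with both mature arms in capitals.
Mir17: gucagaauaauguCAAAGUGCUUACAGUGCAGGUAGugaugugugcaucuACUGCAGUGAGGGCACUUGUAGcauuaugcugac

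The column totals of microRNA counts were 23793733 (wild-type), 42293019 (Eed-/-), 32074712 (Ezh2-/-) and 8485806 (Jarid2-/-). Levels are given as counts-per-million of those totals (CPM), and a list of 4 values without names has the order wild-type, Eed-/-, Ezh2-/-, Jarid2-/-. With 1 column per genotype there are no replicates and no test, so each difference is between columns and has no replicate check. Intervals are exact 95% intervals that cover counting error only, since amplified reads are not independent molecules. On the same columns, 8 of 9 listed ES cell microRNAs of the miR-290 and miR-302 families were found and made up 34.8%, 36.5%, 39.2% and 29.8% of the counts, with none at 0. Lists of fibroblast feeder or mesenchymal (6 of 6 found), blood (5 of 5), neural (4 of 4) and let-7 microRNAs (5 of 5) summed to 0.848%, 1.57%, 0.539% and 0.632%, to 0.589%, 0.462%, 0.933% and 0.287%, to 0.123%, 0.124%, 0.181% and 0.0184%, and to 0.0282%, 0.0334%, 0.0158% and 0.0757%, again with none at 0. Within the fibroblast list 1 of 6 microRNAs, miR-21a-5p, was above wild-type in Eed-/- (15220.0 against 7010.0 CPM) and 5 were below. Of the 8 ES cell microRNAs 4, 3 and 6 were above wild-type in Eed-/-, Ezh2-/- and Jarid2-/-, and the rest below. In the same order it was 0, 1 and 0 of the 5 blood, 2, 2 and 0 of the 4 neural, and 4, 2 and 5 of the 5 let-7 microRNAs. A sum can thus go against most of its list, as those of the ES cell list did in Ezh2-/- and Jarid2-/-. The part of other cells in the levels given here was not tested.

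The cluster made up 11.2% of the wild-type counts (11.2208% to 11.2461%), against 10.8% for Eed-/- (10.7682% to 10.7869%), 16.1% for Ezh2-/- (16.125% to 16.1504%) and 12.2% for Jarid2-/- (12.2151% to 12.2592%). Ezh2-/- was thus the column with the highest share, 1.44-fold above wild-type (1.43445 to 1.4387). The summed level was 1.04-fold lower in Eed-/- than in wild-type (1.04073 to 1.04388), and higher when scaled by the denominators of the authors' reads-per-million values. It was 1.09-fold higher in Jarid2-/- (1.08688 to 1.09182), and lower when the miR-290 and Gtl2-Rian-Mirg loci were left out of the total. In whole-culture RNA, fewer cells that express a microRNA and less of it per cell cannot be told apart.

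Of the 12 rows in that sum, 2 carry names that are also counted on chromosome X, miR-19b-3p and miR-92a-3p. The chromosome 14 and X rows of miR-19b-3p differed by 0.0527% to 0.328% of the chromosome X count over the 4 columns and those of miR-92a-3p by 0.082% to 1.97%, so these rows do not separate the loci. The 10 members with 1 locus summed to 25328 CPM in wild-type, 50717 CPM in Eed-/-, 47508 CPM in Ezh2-/- and 57973 CPM in Jarid2-/-. All 3 mutants were higher than wild-type on this sum: 2.00-fold in Eed-/- (1.99666 to 2.00811), 1.88-fold in Ezh2-/- (1.87011 to 1.8813) and 2.29-fold in Jarid2-/- (2.28026 to 2.2975). These ratios share 1 wild-type column, the lowest of the 4 on this sum. The largest part of it was miR-17-5p, except in Eed-/-, where it was miR-19a-3p. Without miR-17-5p the remaining 9 members were 4.81-fold, 2.11-fold and 4.76-fold higher, in the same order. Without miR-19a-3p the 1-locus sum was 1.14-fold higher in Eed-/- than in wild-type (lower with median-ratio scaling), 1.97-fold in Ezh2-/- and 1.86-fold in Jarid2-/-, and without both it was 2.02-fold, 2.78-fold and 4.14-fold higher. For the whole cluster, leaving out miR-19a-3p put Eed-/- at a log2 ratio of -0.41 and Jarid2-/- at -0.04, below wild-type. These sums without miR-19a-3p were added after the values were seen.

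**Figure D1:**
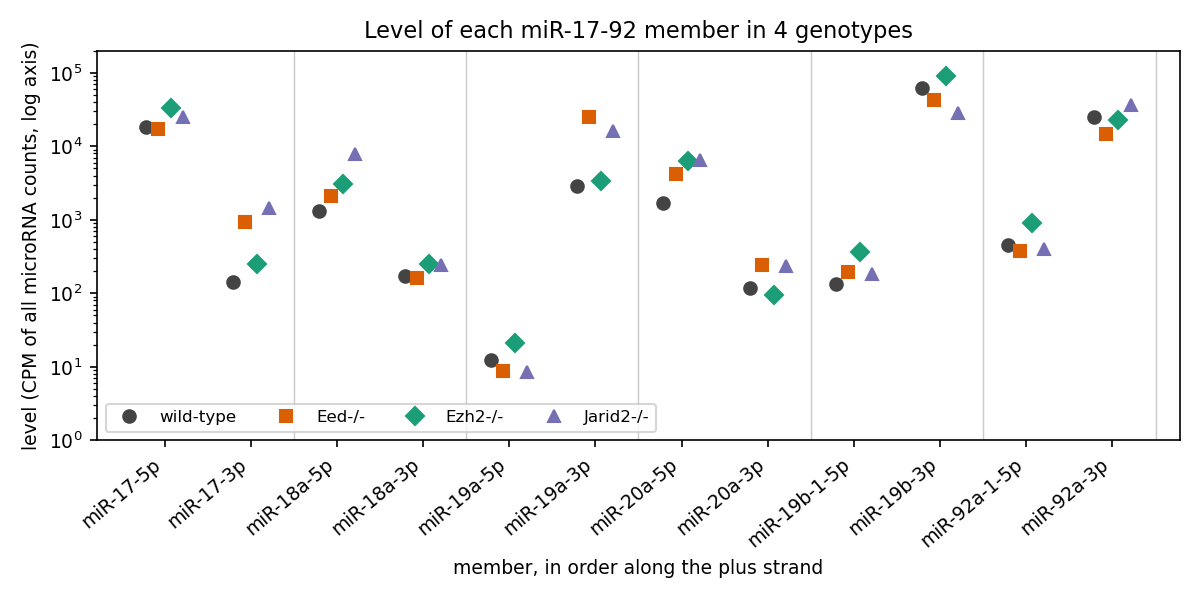
Level of each of the 12 members (x axis, in order along the cluster, a grey line between hairpins) in CPM on a log axis, 1 point per genotype. MiR-19b-3p, miR-92a-3p and miR-17-5p are at the top in wild-type, and miR-17-3p, miR-18a-5p and miR-19a-3p spread most between genotypes, with miR-19a-3p at 2887 CPM in wild-type and 25240 CPM in Eed-/-.

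Members differed widely in level within a column, also among the names with 1 locus. The levels of miR-19b-3p and miR-92a-3p cannot be credited to chromosome 14 alone, which also holds for their part of the abundant arms. In wild-type, miR-19b-3p was at 62235 CPM (rank 4 of all loci), miR-92a-3p at 24771 CPM (rank 7) and miR-17-5p at 18364 CPM (rank 9), and the remaining abundant arms followed at 2887 CPM for miR-19a-3p, 1699 CPM for miR-20a-5p and 1338 CPM for miR-18a-5p. The 6 abundant arms, 1 per hairpin, held 99.1%, 98.2%, 98.8% and 98.0% of the cluster's counts. The rarest member, miR-19a-5p, had 298, 376, 673 and 72 counts. The abundant arm was the 5p arm in miR-17, miR-18a and miR-20a and the 3p arm in miR-19a, miR-19b-1 and miR-92a-1, in all 4 columns.

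A difference of 2-fold or more on log2 of CPM plus 1 was set as a call for loci that reached 10 counts in either column, which all 12 members passed in every comparison. Against wild-type, 4 members were that much higher in Eed-/-, where 17.5% of 1096 loci were, and 0 were lower, where 15.0% were. In Ezh2-/-, 3 members were higher, against 4.90% of 1000 loci, and 0 lower, against 24.5%. In Jarid2-/-, 4 were higher, against 16.3% of 950 loci, and 1 was lower, against 22.8%. The 4 other scalings each moved the ratios of a column by less than 2-fold. None of these 12 calls could therefore change direction under them, though a call could be lost. The share of higher among all called loci did move with the scaling: from 53.9% to 40.1% (median-ratio) and 76.8% (reads-per-million denominators) in Eed-/-, from 16.7% to 46.9% (TMM), 36.8% and 33.5% in Ezh2-/-, and from 41.7% to 59.0% (reads-per-million denominators) in Jarid2-/-.

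The median log2 ratio of the 12 members to wild-type was 0.23, 0.77 and 0.52 for Eed-/-, Ezh2-/- and Jarid2-/-. Over all tested loci it was 0.08, -0.44 and -0.17, so the members' median lay 0.15, 1.21 and 0.69 above it. With TMM scaling the all-locus median in Ezh2-/- became 0.09, and 9 rather than 3 members passed 2-fold there, all of them higher. With the reads-per-million denominators the all-locus medians became 0.46 in Eed-/-, -0.12 in Ezh2-/- and 0.20 in Jarid2-/-, and with the miR-290 and Gtl2-Rian-Mirg loci left out that of Jarid2-/- became -0.27. Median-ratio scaling moved the medians to -0.06, -0.07 and -0.25. Members did not move as 1 unit: their log2 ratios ran from -0.75 to 3.13 in Eed-/-, from -0.34 to 1.91 in Ezh2-/- and from -1.14 to 3.34 in Jarid2-/-.

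**Figure D2:**
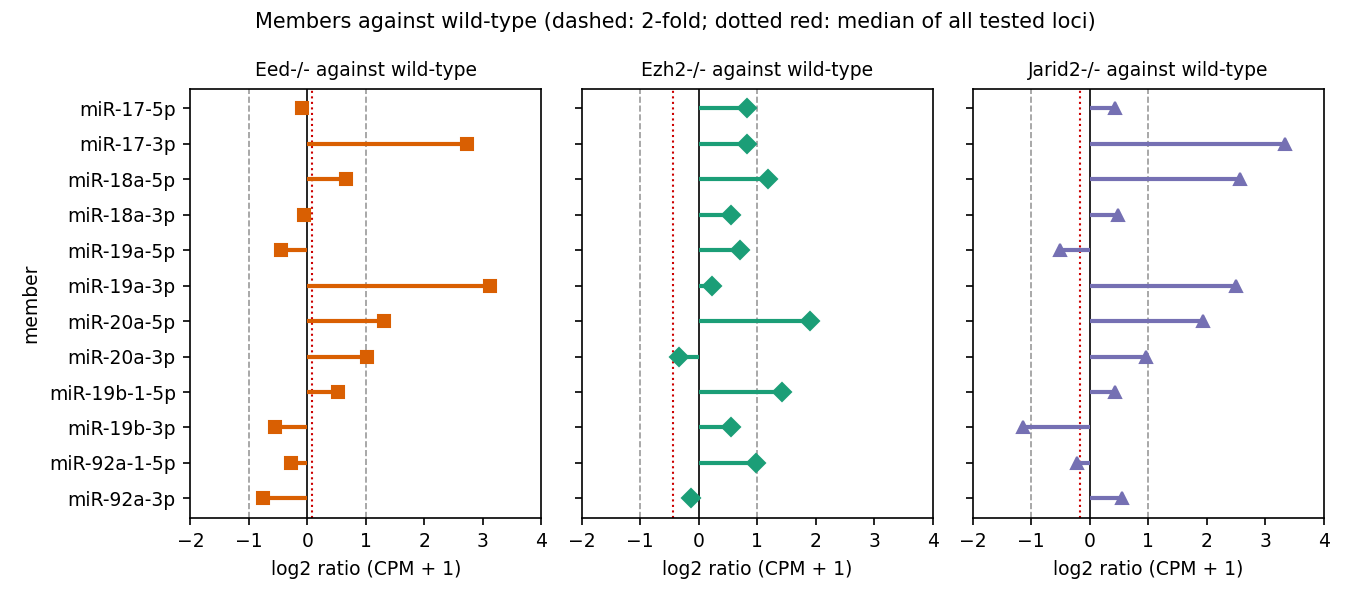
Log2 ratio of CPM plus 1 of each member in Eed-/-, Ezh2-/- and Jarid2-/- against wild-type, 1 point per member and column, with dashed lines at 2-fold and a red dotted line at the median of all tested loci. In Ezh2-/- the points lie within -0.34 to 1.91. In Eed-/- and Jarid2-/- miR-17-3p and miR-19a-3p stand far to the right, in Jarid2-/- with miR-18a-5p (2.56) between them. MiR-19b-3p lies left of 0 in both (in Eed-/- not so with the reads-per-million denominators).

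The miR-17 seed is carried by miR-17-5p and miR-20a-5p, the arms best known for lowering cell cycle inhibitors. MiR-17-5p was at 18364 CPM in wild-type, 17242 CPM in Eed-/-, 32791 CPM in Ezh2-/- and 24854 CPM in Jarid2-/-. Ezh2-/- was the highest column, 1.79-fold above wild-type (1.78 to 1.79), and Jarid2-/- was 1.35-fold above it. Eed-/- was 1.07-fold below wild-type, and above it with the reads-per-million denominators. None of these passed 2-fold with the column total. In Ezh2-/- miR-17-5p did so with TMM, median-ratio and reads-per-million scaling (log2 ratios of 1.57, 1.35 and 1.28).

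MiR-20a-5p was at 1699 CPM in wild-type, 4196 CPM in Eed-/-, 6375 CPM in Ezh2-/- and 6467 CPM in Jarid2-/-. With the column total it was the 1 member higher by 2-fold or more in all 3 mutants, 2.47-fold in Eed-/- (2.44 to 2.50), 3.75-fold in Ezh2-/- (3.71 to 3.79) and 3.81-fold in Jarid2-/- (3.76 to 3.86). MiR-17-3p also passed in all 3 with TMM, median-ratio and reads-per-million scaling, and miR-18a-5p with the last. The 3 ratios share the wild-type column, which is the lowest of the 4. Ezh2-/- and Jarid2-/- differed by 1.01-fold (1.005 to 1.024), a difference whose sign changed with TMM and median-ratio scaling and without the miR-290 and Gtl2-Rian-Mirg loci.
Within the pair, miR-20a-5p made up 8.47% of the wild-type counts (8.39% to 8.55%), against 19.6% for Eed-/- (19.5% to 19.7%), 16.3% for Ezh2-/- (16.2% to 16.3%) and 20.6% for Jarid2-/- (20.5% to 20.8%). Summed, the pair was 1.07-fold higher in Eed-/-, but lower with TMM and median-ratio scaling, 1.95-fold higher in Ezh2-/- and 1.56-fold higher in Jarid2-/-.

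MiR-18a-5p, the only member with its seed, followed another order. It was at 1338 CPM in wild-type, 2115 CPM in Eed-/-, 3053 CPM in Ezh2-/- and 7901 CPM in Jarid2-/-. Jarid2-/- stood apart, 5.90-fold above wild-type (5.83 to 5.98), 3.74-fold above Eed-/- and 2.59-fold above Ezh2-/-. Ezh2-/- was 2.28-fold (2.25 to 2.31) and Eed-/- 1.58-fold (1.56 to 1.60) above wild-type. Its chromosome X relative miR-18b-5p, which differs from it by A18U and A20U, was at 2.31 CPM in wild-type, 18.8 CPM in Eed-/-, 3.59 CPM in Ezh2-/- and 20.7 CPM in Jarid2-/-, and so held little of the family in any column.

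The miR-19 seed is the part of the cluster most closely tied to B cell lymphoma in mouse models. MiR-19a-3p was at 2887 CPM in wild-type, 25240 CPM in Eed-/-, 3396 CPM in Ezh2-/- and 16260 CPM in Jarid2-/-. Eed-/- and Jarid2-/- were high and wild-type and Ezh2-/- low: 8.74-fold (8.68 to 8.81), 5.63-fold (5.58 to 5.68) and 1.18-fold (1.17 to 1.19) above wild-type for Eed-/-, Jarid2-/- and Ezh2-/-. Its rank among all loci was 44, 7, 33 and 17.

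MiR-19b-3p went the other way in the same columns, at 62235 CPM in wild-type, 42330 CPM in Eed-/-, 91140 CPM in Ezh2-/- and 28297 CPM in Jarid2-/-. Jarid2-/- was 2.20-fold below wild-type (2.19 to 2.21), the 1 member called lower than wild-type in any mutant, a call that ended with the reads-per-million denominators (log2 ratio -0.64 against -1.14). Eed-/- was 1.47-fold below wild-type, though above it with the reads-per-million denominators. Ezh2-/- was 1.46-fold above, and passed 2-fold with TMM and median-ratio scaling (log2 ratios of 1.28 and 1.07).
Of the counts of miR-19a-3p and the chromosome 14 row of miR-19b-3p, miR-19a-3p therefore made up 4.43% in wild-type (4.40% to 4.47%). It made up 3.59% in Ezh2-/- (3.57% to 3.61%), but 37.4% in Eed-/- (37.3% to 37.4%) and 36.5% in Jarid2-/- (36.3% to 36.6%). This share does not depend on the scaling of the columns. It would be lower if the reads of miR-19b-3p had been split between its 2 rows, which is not stated. The 2 chromosome 14 rows summed to 65122 CPM in wild-type, 67570 CPM in Eed-/-, 94537 CPM in Ezh2-/- and 44557 CPM in Jarid2-/-. The sum was 1.04-fold higher in Eed-/- than in wild-type, and lower with TMM and median-ratio scaling. It was 1.45-fold higher in Ezh2-/-, where it passed 2-fold with TMM and median-ratio scaling (log2 ratios of 1.27 and 1.06). In Jarid2-/- it was 1.46-fold lower, with a log2 ratio that went from -0.55 to -0.051 with the reads-per-million denominators.

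**Figure D3:**
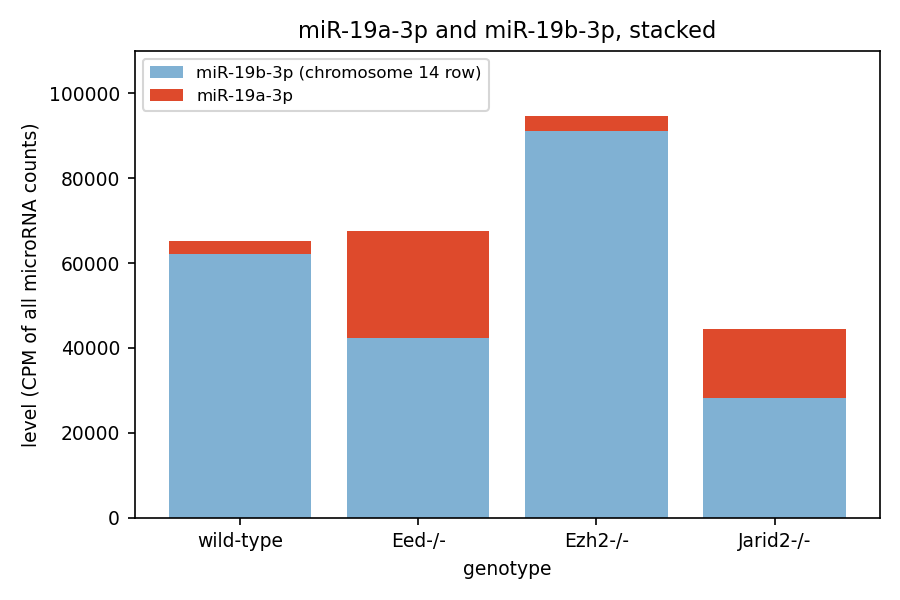
Stacked level (CPM) of miR-19b-3p (chromosome 14 row, blue) and miR-19a-3p (red) per genotype, 1 bar per column of counts. The red part is 4.43% of the bar in wild-type and 3.59% in Ezh2-/-, and 37.4% and 36.5% in Eed-/- and Jarid2-/-.

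Other pairs of names that differ by 1 base were set beside it, a comparison added after these values were seen. Of 51 such pairs with at least 10 counts of each name in both columns, 25.5% had a ratio 2-fold or more different between Eed-/- and wild-type, of 48 pairs 16.7% between Ezh2-/- and wild-type, and of 48 pairs 22.9% between Jarid2-/- and wild-type. These pairs are not independent, since some share a name. Several pairs of miR-466 names changed by 0 or almost 0, as miR-466b-3p and miR-466e-3p did (0 in each mutant), which lowers these shares. The log2 change of the miR-19a-3p to miR-19b-3p ratio was 3.68 in Eed-/- and 3.63 in Jarid2-/-, the second in size after the pair of miR-7a-5p and miR-7b-5p (-5.41 and -4.97) in both. In Ezh2-/- it was -0.32, rank 21 of 48. The ratio of miR-17-5p to miR-106a-5p changed by -0.29, 0.70 and -0.78 in Eed-/-, Ezh2-/- and Jarid2-/-. How reads that fit both names of a pair were assigned is not given in the sources used here, and its part in these shares was not tested.

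MiR-92a-3p, which shares its seed with miR-25-3p, miR-32-5p, miR-92b-3p, miR-363-3p and miR-367-3p, was at 24771 CPM in wild-type, 14729 CPM in Eed-/-, 22729 CPM in Ezh2-/- and 36102 CPM in Jarid2-/-. Eed-/- was the lowest column, 1.68-fold below wild-type (1.68 to 1.69), though its log2 ratio went from -0.75 to -0.038 with the reads-per-million denominators, and Jarid2-/- the highest, 1.46-fold above it (1.45 to 1.46). Ezh2-/- was 1.09-fold below wild-type, but above it with TMM, median-ratio and reads-per-million scaling. The direct ratio of Jarid2-/- to Eed-/- was 2.45-fold. In Ezh2-/- its partner arm miR-92a-1-5p was 1.97-fold above wild-type (1.93 to 2.02), at 907 against 460 CPM. This arm passed 2-fold there with TMM, median-ratio and reads-per-million scaling (log2 ratios of 1.71, 1.50 and 1.42). It also passed without the miR-290 and Gtl2-Rian-Mirg loci (1.01).

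The remaining 6 arms are the strands usually degraded. Summed they were 1.85-fold higher in Eed-/- (1.82 to 1.88), 1.82-fold in Ezh2-/- (1.79 to 1.85) and 2.40-fold in Jarid2-/- (2.35 to 2.44) than in wild-type. Without miR-17-3p the other 5, a sum added after the values were seen, were 1.10-fold higher in Eed-/- (lower with median-ratio scaling), 1.83-fold in Ezh2-/- and 1.18-fold in Jarid2-/-. MiR-92a-1-5p, the most abundant of these arms in wild-type, was 1.22-fold lower in Eed-/- and 1.16-fold lower in Jarid2-/-, and higher in both with the reads-per-million denominators. MiR-17-3p was the member with the largest ratio in Jarid2-/-: it was at 140 CPM in wild-type, 936 CPM in Eed-/-, 251 CPM in Ezh2-/- and 1428 CPM in Jarid2-/-. It was 6.66-fold higher in Eed-/- (6.43 to 6.90), 10.2-fold in Jarid2-/- (9.78 to 10.6) and 1.79-fold in Ezh2-/- (1.72 to 1.86).
The other less abundant arms spread less. MiR-20a-3p was at 120 CPM in wild-type, 243 CPM in Eed-/-, 94.4 CPM in Ezh2-/- and 233 CPM in Jarid2-/-, and was called against wild-type in Eed-/- alone, at 2.03-fold (1.94 to 2.11), with a log2 ratio of 1.01 that fell under the threshold with TMM (0.89) and median-ratio scaling (0.79). In Jarid2-/- it was 1.95-fold higher, with a counting interval that also spans 2-fold (1.84 to 2.06). There it passed with the reads-per-million denominators (log2 ratio 1.45). Its Eed-/- and Jarid2-/- levels differed by 1.04-fold with an interval that includes 1 (0.992 to 1.09). MiR-19b-1-5p was at 135, 196, 366 and 183 CPM in the order wild-type, Eed-/-, Ezh2-/- and Jarid2-/-, and was called in Ezh2-/- at 2.70-fold (2.60 to 2.81). MiR-18a-3p was at 172, 164, 253 and 241 CPM in that order, and miR-19a-5p at 12.5, 8.89, 21.0 and 8.48 CPM. With the column total neither was called against wild-type in any mutant. In Ezh2-/- miR-18a-3p passed 2-fold with TMM and median-ratio scaling (log2 ratios of 1.28 and 1.07). MiR-19a-5p passed there with TMM, median-ratio and reads-per-million scaling (1.40, 1.20 and 1.11). For each of these members, a pair of columns had counting intervals that include equality: Ezh2-/- and Jarid2-/- for miR-18a-3p (1.05-fold, 0.999 to 1.10) and Eed-/- and Jarid2-/- for miR-19a-5p (1.05-fold, 0.812 to 1.37).

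Arms of 1 hairpin are made in equal number, so their ratio within a column depends neither on the column total nor on the amount of primary transcript. For miR-17 the 5p to 3p ratio was 131 in wild-type and 131 in Ezh2-/- but 18.4 in Eed-/- and 17.4 in Jarid2-/-, which is 7.09-fold (6.85 to 7.35) and 7.51-fold (7.23 to 7.81) lower. In Ezh2-/- both arms, printed in capitals in the hairpin above, were 1.79-fold above wild-type, and the ratio differed by 1.00-fold (0.961 to 1.04). In Eed-/- and Jarid2-/- the 3p arm alone was far above wild-type.

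For miR-19a the 3p to 5p ratio was 231 in wild-type and 162 in Ezh2-/- but 2839 in Eed-/- and 1916 in Jarid2-/-, which is 12.3-fold (10.5 to 14.4) and 8.31-fold (6.41 to 10.9) higher. The miR-17 and miR-19a hairpins thus divided the columns in the same way, wild-type with Ezh2-/- and Eed-/- with Jarid2-/-. MiR-19a-3p differs by 1 base from the more abundant miR-19b-3p, and the part of read assignment in the miR-19a ratio was not tested.
For miR-20a it was Ezh2-/- that stood apart: the 5p to 3p ratio was 14.2, 17.3, 67.5 and 27.7, which is 4.76-fold higher (4.51 to 5.01) in Ezh2-/-. For miR-18a it was Jarid2-/-, with ratios of 7.79, 12.9, 12.1 and 32.7 in the order wild-type, Eed-/-, Ezh2-/- and Jarid2-/-, 4.20-fold higher (3.98 to 4.44) in Jarid2-/-.
In miR-19b-1 and miR-92a-1 the 3p arm carries the name shared with chromosome X, so the ratio is not that of 1 hairpin. It was 460, 216, 249 and 155 for miR-19b-1, and 53.9, 39.1, 25.1 and 90.8 for miR-92a-1, in the same order.

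In all, the arm ratio was 2-fold or more different from wild-type in 3 of 6 hairpins in Eed-/-, 2 in Ezh2-/- and 4 in Jarid2-/-, and in 2, 1 and 3 of the 4 hairpins without a shared name. Over all hairpins with at least 10 counts of both arms in both columns it was so in 39.4% of 327 for Eed-/-, 28.8% of 278 for Ezh2-/- and 45.0% of 271 for Jarid2-/-. Arm ratios that differ by 2-fold between these columns were therefore common in the tables, and with 6 hairpins the counts are near that background.

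**Figure D4:**
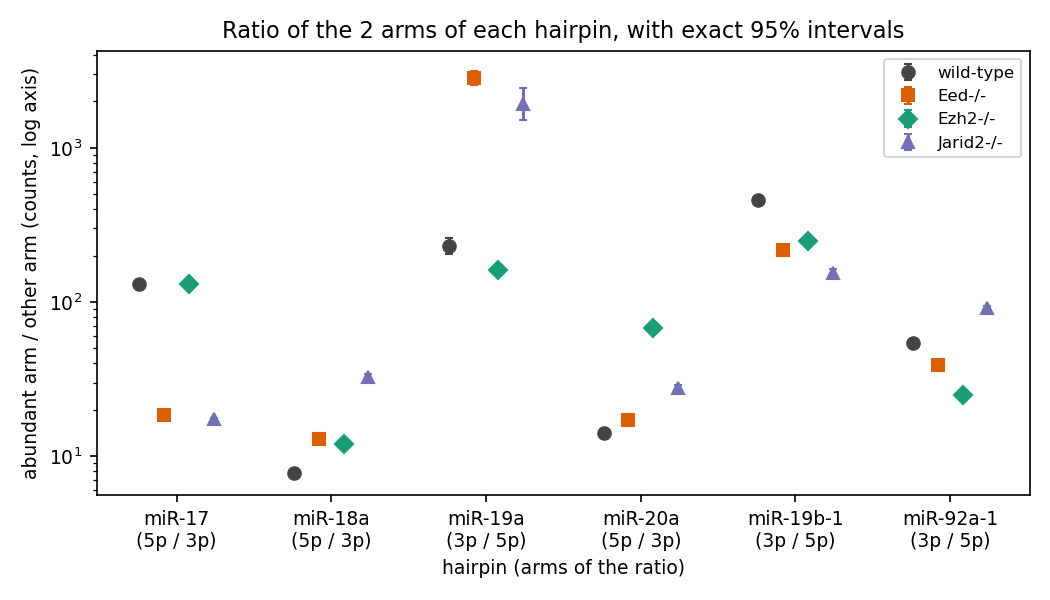
Ratio of the counts of the abundant arm to the other arm (log axis) for the 6 hairpins, 1 point per genotype, with bars for the exact 95% interval of counting error (mostly smaller than the points). Wild-type and Ezh2-/- lie together for miR-17 (131 and 131) and near each other for miR-19a (231 and 162), away from Eed-/- and Jarid2-/-.

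Direct ratios between mutants do not use the wild-type column. Eed-/- against Ezh2-/- had 3 members 2-fold or more higher, where 35.7% of 1091 loci were, and 3 lower, where 4.58% were. The higher ones were miR-17-3p (3.73-fold), miR-19a-3p (7.43-fold) and miR-20a-3p (2.57-fold), and the lower ones miR-19a-5p (2.36-fold), miR-19b-3p (2.15-fold) and miR-92a-1-5p (2.41-fold). Jarid2-/- against Ezh2-/- had 4 higher, against 33.0% of 930 loci, and 3 lower, against 8.92%. Those 7 comprised the 6 members just named, in the same directions (miR-17-3p 5.69-fold, miR-19a-3p 4.79-fold and miR-20a-3p 2.47-fold higher, miR-19a-5p 2.47-fold, miR-19b-3p 3.22-fold and miR-92a-1-5p 2.28-fold lower), and miR-18a-5p, 2.59-fold higher. Both comparisons share the Ezh2-/- column. With TMM scaling miR-20a-3p no longer passed 2-fold in either (log2 ratios of 0.50 and 0.54), nor did miR-18a-5p in the second (0.62), and with the reads-per-million denominators miR-19a-5p, miR-19b-3p and miR-92a-1-5p no longer passed in the first (-0.91, -0.84 and -0.999), which left 3 higher and 0 lower. With TMM and with median-ratio scaling, 2 members were higher and 9 lower in the first comparison, and 2 higher and 5 lower in the second.
Jarid2-/- against Eed-/- had 2 members higher, miR-18a-5p (3.74-fold) and miR-92a-3p (2.45-fold), where 7.18% of 1073 loci were, and 0 lower, where 18.9% were. The summed cluster was 1.50-fold lower in Eed-/- and 1.32-fold lower in Jarid2-/- than in Ezh2-/-, and 1.14-fold higher in Jarid2-/- than in Eed-/-, the last with a log2 ratio of -0.03 with the reads-per-million denominators. With the column total, the sum of the 10 members with 1 locus had the opposite direction in the first 2: it was 1.07-fold higher in Eed-/- and 1.22-fold higher in Jarid2-/- than in Ezh2-/-. With TMM and median-ratio scaling this sum was highest in Ezh2-/-. Its log2 ratios to wild-type, in the order Eed-/-, Ezh2-/- and Jarid2-/-, were 0.88, 1.64 and 1.17 with TMM. They were 0.78, 1.42 and 1.07 with median-ratio scaling. Without miR-19a-3p the 1-locus sum was highest in Ezh2-/- with the column total too, 1.97-fold above wild-type against 1.14-fold and 1.86-fold.

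The less abundant arms of these hairpins have names specific to a locus. Arm ratios differed between columns, so the shares of these arms do not give the locus of miR-19b-3p or miR-92a-3p counts. MiR-19b-1-5p, from chromosome 14, made up 80.9% of its counts with miR-19b-2-5p, its chromosome X counterpart, in wild-type (79.7% to 82.1%), against 94.3% in Eed-/- (93.8% to 94.8%), 97.5% in Ezh2-/- (97.2% to 97.8%) and 79.7% in Jarid2-/- (77.9% to 81.5%). MiR-92a-1-5p made up 93.9%, 96.0%, 95.2% and 79.5% of its counts with miR-92a-2-5p in the same order. Jarid2-/- was the column with the lowest share for both, with an interval that overlaps that of wild-type for the first. In every column most counts of these arms thus belonged to the chromosome 14 names.

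Among the 6 microRNAs of the miR-17 seed in the 3 related clusters, miR-17-5p and miR-20a-5p held 54.0%, 48.6%, 70.9% and 40.9% of the counts. The 6 names summed to 37130 CPM, 44124 CPM, 55252 CPM and 76649 CPM in that order. The cluster's part was the greatest in Ezh2-/-, where miR-106a-5p was 1.10-fold above wild-type and miR-20b-5p 1.18-fold below it, but above it with TMM, median-ratio and reads-per-million scaling. In Jarid2-/- miR-20b-5p was at 26222 CPM against 7750 CPM in wild-type (3.38-fold) and miR-106a-5p at 16559 CPM against 7138 CPM (2.32-fold). In Eed-/- the chromosome 5 name miR-93-5p was at 5369 CPM against 178 CPM.
MiR-20b-3p, the name nearest to miR-17-3p, was at 166 CPM in wild-type, 339 CPM in Eed-/-, 101 CPM in Ezh2-/- and 1391 CPM in Jarid2-/-. It was thus 8.37-fold higher in Jarid2-/- (8.07 to 8.68), where miR-17-3p was 10.2-fold higher, and 2.04-fold higher in Eed-/-. The 10 miR-106a-363 loci with 1 copy summed to 2.77-fold above wild-type in Jarid2-/-.

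**Figure D5:**
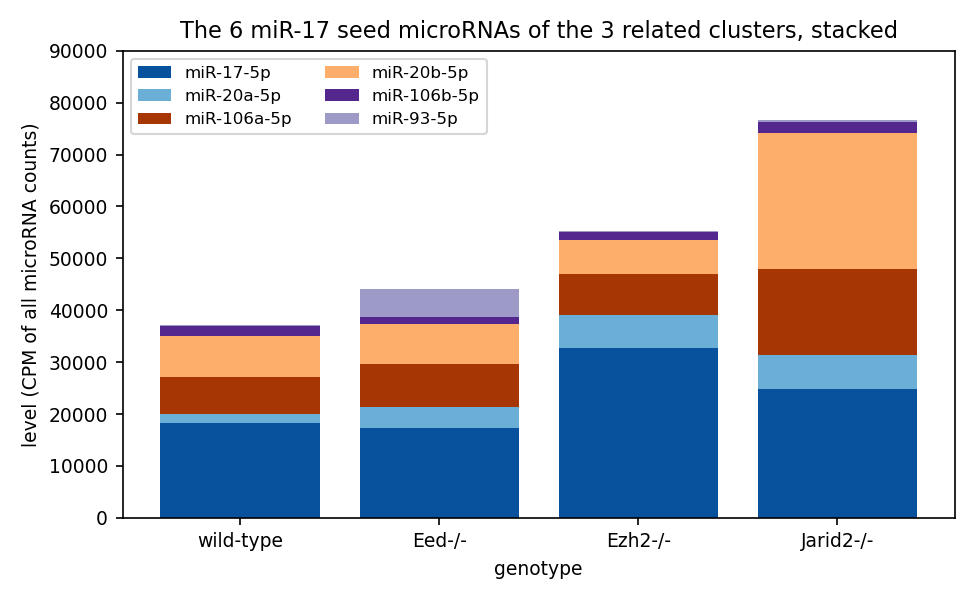
Stacked level (CPM) of the 6 microRNAs with the miR-17 seed, 2 from each related cluster (blue: miR-17-92, orange and brown: miR-106a-363, purple: miR-106b-25), 1 bar per genotype. The blue part is 54.0%, 48.6%, 70.9% and 40.9% of the bar in wild-type, Eed-/-, Ezh2-/- and Jarid2-/-.

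By the distance between log2(CPM + 1) profiles, each less its mean over the 4 genotypes, the names outside the cluster most like its sum were miR-182-5p (distance 0.13), miR-3060-3p (0.15), miR-295-3p (0.16), miR-96-5p (0.23) and miR-1249-3p (0.24), of 539 loci with a mean of at least 10 CPM. MiR-182-5p was at 9763 CPM in wild-type, 10570.0 CPM in Eed-/-, 14864 CPM in Ezh2-/- and 11073 CPM in Jarid2-/-. With 4 columns such a likeness is a description only.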

How the data were processed

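Small RNA of 18 to 40 nt was gel selected and sequenced on a SOLiD instrument, per the labels' protocols. The authors deposited 1 table per genotype with read counts per mature microRNA locus (miRBase release 20) and the same values as reads-per-million (RPM), per the file headers. Cutadapt, Bowtie and mm9 appear in the submitters' processing notes. Their versions, and what was done with multiply matching reads, are not given in these sources. Columns were assigned to genotypes by name; the wild-type column names only the parental line, and the Jarid2-/- column an older name of that gene. The counts were used as deposited. Dividing them by RPM gave the authors' denominators (246316316, 267248746, 243895676 and 62259756 for wild-type, Eed-/-, Ezh2-/- and Jarid2-/-), of which microRNA counts were 9.66%, 15.8%, 13.2% and 13.6%.

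CPM is the counts-per-million value of the column total. Folds have no pseudocount and carry exact conditional binomial 95% intervals, shares Clopper-Pearson intervals and folds of arm ratios the interval of Fisher's exact odds ratio (scipy 1.17.1). Log2 ratios of single loci used a pseudocount of 1 CPM, which understates differences of low loci. Log2 ratios of sums, arm ratios and pairs of names had none, nor had the 36 member ratios in the count of sign changes. All 12 members are named, with relatives where a result turns on them, and the 5 most alike names by distance. The planned edgeR fit needs replicate columns and was replaced by the planned description without a test. Alternative scalings were TMM (edgeR 4.0.16), median-ratio size factors (DESeq2 1.42.0), the RPM denominators, and the total without the miR-290 and Gtl2-Rian-Mirg loci. Members, lists and alternatives were chosen with earlier results of these data known. Chromatin and messenger RNA data were not analysed here.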

Additional observations from a re-analysis of the deposited data

How the results depend on the processing

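The log2 ratio of the summed cluster to wild-type moved with the processing by more than counting error. In the order Eed-/-, Ezh2-/- and Jarid2-/- it was -0.06, 0.52 and 0.12 with the column total, -0.19, 1.25 and 0.096 with TMM, -0.28, 1.04 and 0.0021 by median-ratio scaling, 0.65, 0.97 and 0.62 by the RPM denominators, and -0.044, 0.56 and -0.028 without the miR-290 and Gtl2-Rian-Mirg loci in the total. It was 1.00, 0.91 and 1.20 without the members that have a second locus, 0.39, 0.49 and 0.91 without miR-19b-3p, the most abundant member in wild-type, and, in alternatives chosen after seeing the data, -0.41, 0.53 and -0.045 without miR-19a-3p, 0.20, 0.60 and 0.39 with second-locus members at 0.5 times their count and -0.064, 0.52 and 0.14 with each name once in the total. Members 2-fold or more different in Ezh2-/- numbered 3 with the column total, 9 under TMM, 9 under median-ratio factors and 7 under the RPM denominators. Of 36 member ratios to wild-type, 8 changed sign under at least 1 of 4 scalings. Of the 12 called none could, since each scaling moved the ratios of a column by less than 2-fold. The counts of hairpins with a different arm ratio were the same with a minimum of 10 counts per arm or 1 count added, and 2, 1 and 3 (against 3, 2 and 4) over the 4 hairpins without a shared name, which are fewer. The cause of these shifts was not tested. No paired analysis was possible because each genotype has 1 column of counts, so no replicate could be blocked or left out either. The counting interval of miR-20a-3p spans 2-fold in Eed-/- (1.94 to 2.11) and in Jarid2-/- (1.84 to 2.06). So do those of miR-92a-1-5p in Ezh2-/- (1.93 to 2.02) and of the miR-20a arm ratio in Jarid2-/- (1.84 to 2.07). The same holds for miR-19b-1-5p between Jarid2-/- and Ezh2-/- (1.90 to 2.12 lower), and miR-19a-5p has the fewest counts, 72 in Jarid2-/-.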
